A study of Mus musculus with 696 samples.

Results

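Postn, Aspn, Abi3bp, Tgfbi, Fn1 and Tnc are genes of secreted matrix proteins, and they are described here as 6 of the 15652 genes measured in single keratinocytes of wounded mouse tail skin. The genes were chosen by name, with their levels in these same cells already known, so every level, fold change and share given for them is a description. Fits across all genes also tested them, and those results are given without a conclusion. The cells came from female mice of mixed CBA C57BL/6 background that carried both an Lrig1-EGFP-ires-CreERT2 allele and a Rosa26-fl/STOP/fl-tdTomato reporter. Cre was driven by Lrig1, which marks stem cells of the follicle's upper part, and hydroxytamoxifen was applied to the tail before wounding in every group, unwounded skin included. Epidermal cells positive for tdTomato were sorted from the zone that holds the wound bed and distal follicles, and each was sequenced over whole transcripts without molecular identifiers. The groups were unwounded skin (0w, 179 cells), skin 1 week after a first full-thickness wound (1w pw1, 168 cells), skin 8 weeks after it (8w pw1, 172 cells) and skin 1 week after a second wound placed over the first (1w pw2, week 9, 177 cells). The study asked whether stem cells of the follicle keep a memory of the first wound. Each group consisted of 2 plates, the labels do not say which animals a plate pooled, the titles carry a replicate letter that both plates of a time point share and that differs between time points, so what it marks cannot be told apart from the time point, and the sort also keeps any other tdTomato-positive cell of the epidermal suspension.

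Matricellular proteins lie in the extracellular matrix but act mainly by binding cell surface receptors, collagens and growth factors rather than by bearing load. Periostin (Postn) and Tgfbi share fasciclin-like domains, bind integrins, and Tgfbi owes its name to its induction by transforming growth factor beta. Asporin (Aspn) is a small leucine-rich protein that binds collagen and transforming growth factor beta, Abi3bp is a matrix protein that binds cells, and fibronectin (Fn1) and tenascin C (Tnc) are large glycoproteins of the provisional matrix of healing wounds. In skin these proteins are best known as products of fibroblasts, so the identity of the sorted cells was examined before the levels.

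At least 10 counts of Krt5 or Krt14, the keratins of basal epidermal cells, were held by 593 cells (85.2% of all). Of markers of fibroblasts, 574 cells held no count of Col1a1, Col1a2, Pdgfra, Dcn or Lum. Col1a1, the chain of the main fibroblast collagen, was seen in 11 cells and in 0 cells with 10 or more counts, and Pdgfra, a platelet-derived growth factor receptor that marks fibroblasts, in 8 cells. Of these 5 genes, 14 cells held at least 2 and 1 cell held at least 3. Some genes of the fibroblast list were seen more often, with Fbln1 in 147 cells (40 with 10 or more counts), Lum and Pi16 in 62 each, Dcn in 30 (14 with 10 or more counts) and Col1a2 in 26. Of the 20 cells with most Postn counts, 2 held at least 2 of the 5 fibroblast genes above, and all 20 held at least 10 counts of Krt5 or Krt14. The same counts were 0 and 20 of 20 for Aspn, 2 and 20 for Abi3bp, and 1 and 18 for Tgfbi. The sum of the fibroblast list, as CPM of the counts of the cells summed, was higher in cells with Postn than in those without it at 0w (67.1 and 42.1 against 13.7 and 24.9 CPM on the 2 plates) and at 8w pw1 (29.0 and 49.6 against 12.2 and 4.84 CPM). It was 9.92 and 4.27 against 9.87 and 19.0 CPM at 1w pw1, and 9.41 and 67.0 against 26.8 and 32.9 CPM at 1w pw2. For Abi3bp it was 63.2 and 59.0 against 21.6 and 4.66 CPM at 0w, and 36.1 and 16.9 against 11.9 and 33.2 CPM at 8w pw1. Markers of mural or muscle cells (4 of 6 listed in the table) summed to 0.312 and 2.97 CPM (counts relative to all counts of the plate, scaled between plates) at 0w, 20.3 and 26.2 at 1w pw1, 0.936 and 1.11 at 8w pw1, and 10.4 and 41.7 at 1w pw2, so they were higher on the healing plates, where nearly all of the sum was Acta2 (seen in 56 cells, 20 with 10 or more counts). Leukocyte markers (5 of 9) summed to 0.363 to 7.50 CPM on 7 plates and to 52.4 CPM on 1w pw2 replicate 2. Of endothelial markers, Kdr was seen in 4 cells and Tie1 in 16, with 10 or more counts in 0 cells, whereas Pecam1 was seen in 687 cells. The part of such cells in the levels below was not tested.

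Sequence upstream of the transcription start is shown for the 3 genes whose levels the results turn on and that have an entry in the RefSeq table of GRCm38.p6. The genes Postn (chr3:54361109-54391037, plus strand) and Abi3bp (chr16:56477878-56690135, plus) lie on separate chromosomes, and Aspn (chr13:49544443-49567565, plus) and Tgfbi (chr13:56609523-56639562, plus) lie on one. Fn1 (chr1:71585520-71653200, minus) and Tnc (chr4:63959785-64047015, minus) complete the group, and all 6 are protein-coding. The windows lie directly upstream of the annotated gene, at chr3:54360857-54361106 for Postn, chr13:49544193-49544442 for Aspn and chr13:56609336-56609522 for Tgfbi. For Postn the nearer of 2 entries is shown. Capitals mark TATAAA on either strand, the letters of the TATA box.

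Postn: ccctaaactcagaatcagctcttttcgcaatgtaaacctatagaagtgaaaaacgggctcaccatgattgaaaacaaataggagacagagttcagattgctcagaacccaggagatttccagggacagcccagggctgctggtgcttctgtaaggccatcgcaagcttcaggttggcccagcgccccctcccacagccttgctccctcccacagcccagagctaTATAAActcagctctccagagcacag
Aspn: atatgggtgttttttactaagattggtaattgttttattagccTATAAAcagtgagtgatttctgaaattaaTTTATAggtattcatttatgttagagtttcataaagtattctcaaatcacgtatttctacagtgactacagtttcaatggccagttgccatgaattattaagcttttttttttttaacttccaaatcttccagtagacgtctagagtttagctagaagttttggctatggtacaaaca
Tgfbi: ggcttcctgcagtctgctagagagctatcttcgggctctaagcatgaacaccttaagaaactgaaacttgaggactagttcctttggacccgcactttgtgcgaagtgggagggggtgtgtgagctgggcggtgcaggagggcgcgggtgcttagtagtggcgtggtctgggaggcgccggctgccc

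The Postn window holds TATAAA at position -26 from the RefSeq start, and the Aspn window holds it at -207 and, on the other strand, at -178, whereas the Tgfbi window holds none. Of 32851 RefSeq windows of 250 bases, 12.4% hold these letters. The AP-1 letters TGANTCA (6.75% of windows), the TEAD letters GGAATG (12.6%) and the SMAD palindrome GTCTAGAC (0.167%) were searched on both strands and are not in these 3 windows, which says nothing of whether the factors act there.

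Postn, Aspn and Abi3bp were high in unwounded skin and 8 weeks after the first wound, and low 1 week after either wound. Levels are given as CPM, the count of a gene relative to all counts of the plate, scaled between plates. Postn measured 1221 and 430 CPM on the 2 plates of 0w. It measured 94.2 and 127 CPM at 1w pw1, 731 and 321 CPM at 8w pw1, and 143 and 284 CPM at 1w pw2. All 4 plates taken 1 week after a wound lay below all 4 other plates, although the highest of them (284 CPM) was close to the lowest of the others (321 CPM). The mean was 825 ± 559 CPM (SD, n = 2) at 0w and 110 ± 22.9 CPM (SD, n = 2) at 1w pw1, and the estimated log2 fold change between them was -2.90 (SE 0.67), or -2.00 (SE 0.66) without 0w replicate 1. The 0w and 8w pw1 plates overlapped.

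Aspn had the widest range of the 6 genes as a ratio of its highest to its lowest plate. It measured 196 and 54.0 CPM at 0w, 2.22 and 0.410 CPM at 1w pw1, 68.9 and 22.4 CPM at 8w pw1, and 1.26 and 0.0540 CPM at 1w pw2. The lowest plate before or 8 weeks after a wound was thus 22.4 CPM and the highest plate 1 week after a wound 2.22 CPM. At 1w pw2 the gene was down to 18 counts on one plate and 1 count on the other, so its estimated log2 fold change from 0w, -7.61 (SE 1.43), rests on a few counts. Without 0w replicate 1 this value was -6.41, and without 0w replicate 2 it was -8.27. Without 1w pw2 replicate 1 it was -11.00, and without 1w pw2 replicate 2 it was -6.59. Few cells carried Aspn, and a single cell held 89.3% of its counts on one plate of 0w (replicate 1) and 89.2% on one of 8w pw1 (replicate 2). With the cell of most counts left out on each plate, the log2 fold change from 0w was -4.90 (SE 1.29) at 1w pw1. At 1w pw2 this left 1 count and 0 counts on the 2 plates, too few for a fold change.

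Abi3bp measured 196 and 153 CPM at 0w, 21.0 and 4.51 CPM at 1w pw1, 45.4 and 87.0 CPM at 8w pw1, and 1.96 and 5.83 CPM at 1w pw2. The 2 plates of 0w lay above all others, and those of 8w pw1 lay between them and the plates taken 1 week after a wound. The log2 fold change from 0w was -3.78 (SE 0.83) at 1w pw1, -1.40 (SE 0.76) at 8w pw1 and -5.48 (SE 0.91) at 1w pw2. Single plates moved these values, the first to -5.29 without 1w pw1 replicate 1 and to -3.06 without 1w pw1 replicate 2, the second to -2.00 without 8w pw1 replicate 2 and to -1.01 without 8w pw1 replicate 1, and the third to -6.45 without 1w pw2 replicate 2 and to -4.93 without 1w pw2 replicate 1. A single cell held 51.6% of the counts of replicate 1 at 0w, and another 75.5% of those of replicate 2 at 8w pw1, and without the cell of most counts on each plate the 3 values were -3.98, -1.99 and -5.27. With every cell weighted equally they were -2.03 (SE 0.93), -1.27 (SE 0.91) and -5.22 (SE 1.08). The Abi3bp plates of 1w pw1 and 1w pw2 overlapped.

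Tgfbi had the opposite order after the first wound. It measured 182 and 69.9 CPM at 0w, 497 and 218 CPM at 1w pw1, 151 and 191 CPM at 8w pw1, and 288 and 188 CPM at 1w pw2. Both plates of 1w pw1 lay above both of 0w, but the plates of 1w pw2 and 8w pw1 overlapped. The separation depended on the scaling between plates, since without it Tgfbi was at 210 and 69.5 CPM at 0w and at 402 and 189 CPM at 1w pw1, which overlap. The log2 fold change from 0w was 1.51 (SE 0.60) at 1w pw1 and 0.92 (SE 0.59) at 1w pw2. Single plates moved these values, to 2.32 and 1.74 without 0w replicate 1, to 0.96 and 0.37 without 0w replicate 2, and the first to 0.79 without 1w pw1 replicate 1. A single cell held 44.4% and 43.5% of the Tgfbi counts on the 2 plates of 1w pw1, and without the cell of most counts on each plate the first value was 0.83 (SE 0.57).

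Fn1 and Tnc had the lowest levels per length of the 6 genes at 0w and were seen in few cells. Fn1 measured 5.24 and 6.63 CPM at 0w, 4.31 and 3.40 CPM at 1w pw1, 1.58 and 0.261 CPM at 8w pw1, and 1.68 and 2.75 CPM at 1w pw2. Its log2 fold change from 0w to 8w pw1 was -2.68 (SE 1.02), with 26 counts in all behind the later value. At 0w a single cell held 96.0% of the counts on one plate and 75.0% on the other. Without the cell of most counts on each plate the value was -1.13, within its SE of 0, and without 8w pw1 replicate 1 it was -4.48 (SE 1.29). Tnc measured 5.35 and 2.27 CPM at 0w, 12 and 1.46 CPM at 1w pw1, 22.9 and 2.87 CPM at 8w pw1, and 35.2 and 8.85 CPM at 1w pw2. Replicate 1 was above replicate 2 for Tnc at every time point, and only the 1w pw2 plates lay above both 0w plates. One cell held 60.4% of the Tnc counts of 1w pw2 replicate 1 and 93.3% of those of replicate 2.

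**Figure D1:**
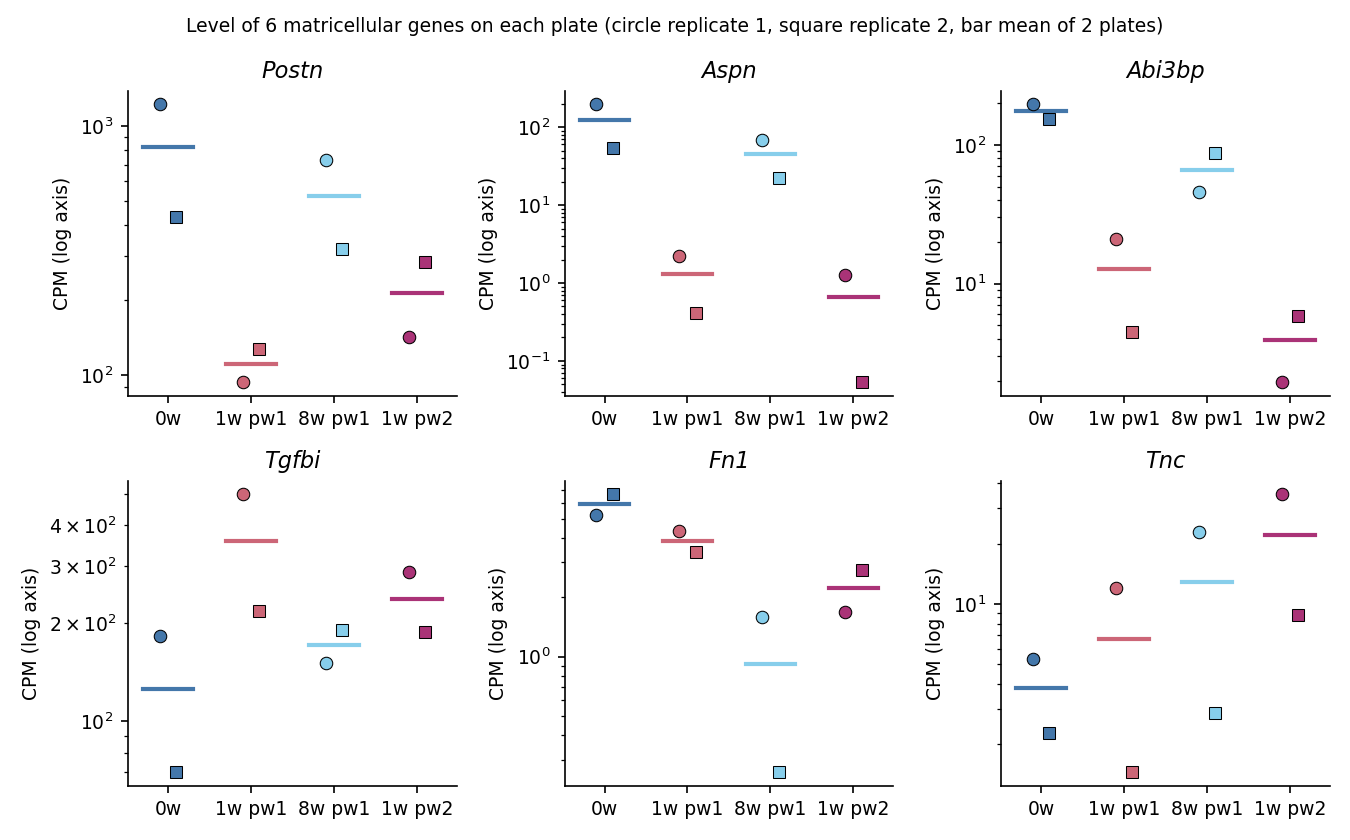
Level of each gene on each plate, in CPM on a log axis, for 4 time points (circle replicate 1, square replicate 2, bar mean of 2 plates). Postn, Aspn and Abi3bp are lower on the 4 plates taken 1 week after a wound than on the 4 others. The lowest level is 0.0540 CPM, for Aspn. Both Tgfbi plates of 1w pw1 lie above both of 0w in this scaling, whereas without it the plates overlap.

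Levels of different genes are comparable only per length, so CPM was divided by the kilobases of exon of each gene. At 0w Postn led with 94.8 ± 64.2 CPM per kb (SD, n = 2), followed by Aspn with 53.1 ± 42.7, Tgfbi with 33.3 ± 20.9 and Abi3bp with 23.6 ± 4.08 CPM per kb, and these 4 overlapped in part. A single cell held 89.3% of the Aspn counts on replicate 1 of 0w, and another 47.0% on replicate 2. The place of Aspn in this order thus rests on few cells. Fn1 and Tnc were at 0.508 ± 0.0842 and 0.490 ± 0.280 CPM per kb. At 1w pw1 the order was another, with Tgfbi at 94.9 ± 52.3 CPM per kb, Postn at 12.7 ± 2.63, Abi3bp at 1.72 ± 1.57 and Aspn at 0.559 ± 0.544. Tgfbi was thus the leading gene of the group 1 week after the first wound, and with 63.0 ± 18.8 CPM per kb against 24.5 ± 11.5 for Postn also after the second.

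All 6 genes passed the filter on low counts. In the fit across all genes (edgeR quasi-likelihood test, Benjamini-Hochberg adjusted p below 0.05 and fold change above 2), 0 of the 6 were called at 1w pw1 against 0w, where 0.527% of 13853 genes were, and 4 of the 6 had an unadjusted p under 0.05, as had 11.5% of all genes. In the comparison of 1w pw2 with 0w Abi3bp was called, 1 of the 6, beside 0.267% of all genes, and 3 of the 6 had an unadjusted p under 0.05 (12.6% of genes). This call of Abi3bp (edgeR adjusted p = 0.0461) was lost without any plate other than 1w pw1 replicate 2 and with every cell weighted equally (edgeR adjusted p = 0.0943). In the other comparisons 0 of the 6 were called. These were 8w pw1 with 0w (0% of genes called, 1 of the 6 at an unadjusted p under 0.05, beside 6.47% of genes), 1w pw2 with 1w pw1 (0% called, 0 of the 6 at that p, beside 6.01%) and 1w pw2 with 8w pw1 (0.00722% called, 2 of the 6 at that p, beside 7.94%). DESeq2 called more, namely Abi3bp, Aspn and Postn at 1w pw1 against 0w (4.68% of genes) and Abi3bp and Aspn after the second wound, both relative to 0w (4.43%) and relative to 8w pw1 (1.86%). With the replicate number as a block, Aspn was called at 1w pw1 against 0w (1.70% of genes). The same fit called Aspn and Abi3bp for 1w pw2 relative to 0w (0.693%) and Aspn relative to 8w pw1 (0.0577%). With every cell weighted equally, Postn alone was called at 1w pw1 against 0w (0.486%). Since the genes were selected on these values, nothing is read from the counts. The same holds for their plates, where 3 of the 6 were lower on all 4 plates 1 week after a wound, as were 3.72% of tested genes, and 0 were higher, as were 4.28%.

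The levels came from different numbers of cells. Postn had at least 1 count in 58.0% and 42.9% of cells on the 2 plates of 0w, in 23.6% and 31.6% at 1w pw1, in 45.9% and 48.3% at 8w pw1 and in 37.2% and 36.3% at 1w pw2. Its plates of 0w and 8w pw1 were above those of both healing points in this share too. The order held with every cell thinned to 50000 counts, which left out 136 shallower cells, with 47.2% of 144 cells at 0w, 27.2% of 147 at 1w pw1, 44.5% of 119 at 8w pw1 and 37.3% of 150 at 1w pw2. Abi3bp was seen in 48.9% and 48.4% of cells at 0w, 18.0% and 19.0% at 1w pw1, 42.4% and 21.8% at 8w pw1, and 10.5% and 8.79% at 1w pw2. The healing points were again the lowest, and after thinning the shares were 41.7%, 10.2%, 27.7% and 7.33% in the same order.

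Aspn was rare in every group, with 20 of 179 cells at 0w (11.2%), 8 of 168 at 1w pw1 (4.76%), 9 of 172 at 8w pw1 (5.23%) and 3 of 177 at 1w pw2 (1.69%). The share of cells with Aspn at 8w pw1 was close to that at 1w pw1, but 6 cells of 8w pw1 and 2 of 1w pw1 held 10 or more counts. Tgfbi was the most widespread gene, seen in 78.8% of the cells of unwounded skin, in 72.0% at 1w pw1 and 80.2% at 8w pw1, and in 65.5% of those from 1w pw2. Its higher level at 1w pw1 thus did not go with more cells that held a count. Over all groups, Fn1 was seen in 60 cells and Tnc in 57.

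Cells with one of these genes often held another. Of the 40 cells with Aspn, 28 also held Postn, as did 38.7% of cells without Aspn, and 18 held Abi3bp, as did 26.2% of the others. These shares pool the time points, and within plates the mean Spearman's rho of Aspn was 0.15 with Postn and 0.02 with Abi3bp (from -0.13 to 0.15). Of the 282 cells with Postn, 87.9% held Tgfbi, against 64.7% of cells without Postn. Of the 57 cells with Tnc, 94.7% held Tgfbi, against 72.3%. Of the 60 cells with Fn1, 83.3% held Tgfbi, against 73.3% of the others, 38.3% held Postn, against 40.7%, and 11.7% held Tnc, against 7.86%.

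To find the cells that carried the counts, all cells were clustered on other genes, with the 6 genes left out, which gave 12 clusters numbered from 0. A share of counts in a cluster is a description of where the reads lay. Cluster 0 (95 cells), led by Slc38a4, Ntrk2 and Ccl27a, was left without a cell type name, although Lgr5, a stem cell gene of the lower follicle, and Ptn were high in it. With all plates pooled, it held 82% of all Aspn counts, 54.9% of Abi3bp counts and 41.5% of Postn counts. The shares differed between plates. Cluster 0 held 71.2% and 74.7% of Abi3bp counts on the plates of 0w, but 8.87% and 7.80% on those of 8w pw1. For Aspn it held 96.5% and 26.9% at 0w, and 85.2% and 89.2% at 8w pw1. Its Aspn share rested on few cells, since 11 of the 95 held Aspn and a single cell of 0w replicate 1 had 3375 of the 5036 counts. The share of cells with Aspn was higher in cluster 9 (24.0%), in cluster 8 (21.1%) and in cluster 7 (15.9%) than in cluster 0 (11.6%). With the cell of most counts of each plate left out, cluster 0 held 53.7% of Aspn, 44.1% of Abi3bp and 47.0% of Postn counts. Cluster 9 (25 cells) was bulge-like, with Cd34 among its leading genes and Lgr5, Lhx2, Krt15 and Col17a1 high. Nfatc1, Ptn and Cd200 of the same list were lower there than in cluster 0 (57.9, 119 and 37.5 against 77.1, 376 and 55.3 CPM, mean over cells). Cluster 9 held 25.7% of Postn counts. All 25 of its cells had Postn. Within a cluster, CPM is relative to the counts of its own cells and not scaled between plates, and Postn was at 6365 CPM on 0w replicate 1, 3528 on 8w pw1 replicate 1 and 2863 on 8w pw1 replicate 2, the plates with at least 5 of its cells.

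Pooled over all plates, the largest shares of Tgfbi and Tnc counts lay in another cluster, number 11, which had 0 cells at 0w and 0 at 8w pw1. At those time points cluster 0 held 50.9% and 53.8% (0w) and 31.5% and 14.2% (8w pw1) of Tgfbi counts. Cluster 11 (52 cells), led by Krt6b, S100a9, S100a8 and Krt16, genes of activated keratinocytes, was activated-like. Krt17 and Itga5 of the activated list were higher elsewhere (Krt17 at 3949 CPM in cluster 4 against 1110, Itga5 at 25.1 in cluster 1 against 9.34). Cluster 11 held 42.8% of Tgfbi counts and 58.1% of Tnc counts, or 31.2% and 41.2% with the cell of most counts of each plate left out. Only 16 of its 52 cells held Tnc. In cluster 9 the gene was seen in 17 of 25 cells, among them all 8 cells of 8w pw1 replicate 1, and its level over all plates was 67.1 CPM there and 56.4 CPM in cluster 11. Tgfbi was seen in 91.6% of the cells of cluster 0, in 92.0% of cluster 9 and in 96.2% of cluster 11. In cluster 11 Tgfbi measured 1126 and 661 CPM on the plates of 1w pw1, and 1340 and 437 at 1w pw2. The cells with 44.4% and 43.5% of the Tgfbi counts of the 1w pw1 plates were both in cluster 11, and without the cell of most counts in the cluster on each plate the levels were 508 and 245 CPM at 1w pw1 and 961 and 387 CPM at 1w pw2. Cells of cluster 11 had little Postn at 1w pw1, with 4.47 and 0 CPM, but 113 and 402 at 1w pw2 (30.9 and 102 without the cell of most counts), and the cells with a count were 1 of 16 and 0 of 15 against 3 of 11 and 6 of 10.

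A second bulge-like cluster, number 7 (63 cells), led by Krt15 with Lhx2 among its top genes, was present at all time points. Its name rests on part of the bulge list. Cd34, Lhx2, Sox9, Tbx1, Fgf18 and Krt15 were higher there than in cluster 0. Lgr5 (86.7 against 178 CPM), Nfatc1, Cd200, Ptn, Gas1 and Col17a1 were lower. Krt6a of the activated list was at 1419 CPM in cluster 7. Postn there was 76.5 and 489 CPM at 0w, 24.7 and 99.2 at 1w pw1, 2.33 on the 8w pw1 plate with at least 5 of its cells, and 337 and 399 at 1w pw2. Both 1w pw2 plates lay above both of 1w pw1, the plates of 0w overlapped with each of these, and the 8w pw1 plate was the lowest, so the order of the whole plates was not seen within this cluster. These levels rest on 5 to 13 cells a plate, and without the cell of most counts they were 1.94 and 75.5 CPM at 0w, 12.2 and 58.2 at 1w pw1, 0 at 8w pw1, and 115 and 45.4 at 1w pw2, where the plates of 1w pw1 and 1w pw2 overlapped. Tgfbi in the same cells was 96.1 and 60.7 at 0w, 151 and 35.3 at 1w pw1, 94.3 at 8w pw1, and 530 and 270 at 1w pw2, so both 1w pw2 plates were above all the others, as they were without the cell of most counts (353 and 202 CPM, against 17.0 to 135). Abi3bp was also carried by cluster 4 (109 cells, led by Slc46a2, Sprr1a and Calhm5, with Cst6 of the upper follicle), which held 18.8% of its counts, and by the sebaceous-like cluster 10 (60 cells, led by Scd1 and Soat1), which held 11.1%. Single cells and plates carried these shares. In cluster 4 Abi3bp was at 34.0 and 52.2 CPM at 0w, 88.8 and 9.21 at 1w pw1, 61.7 and 217 at 8w pw1, and 4.13 and 5.73 at 1w pw2. Without the cell of most counts in the cluster on each plate it was at 27.7 and 31.4 CPM at 0w, 7.30 and 6.03 at 1w pw1, 33.0 and 26.6 at 8w pw1, and 0 and 0.839 at 1w pw2. In cluster 10 it was at 264 CPM on 0w replicate 1 and at 11.1, 0.803 and 0 CPM on the other plates with at least 5 of its cells.

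**Figure D2:**
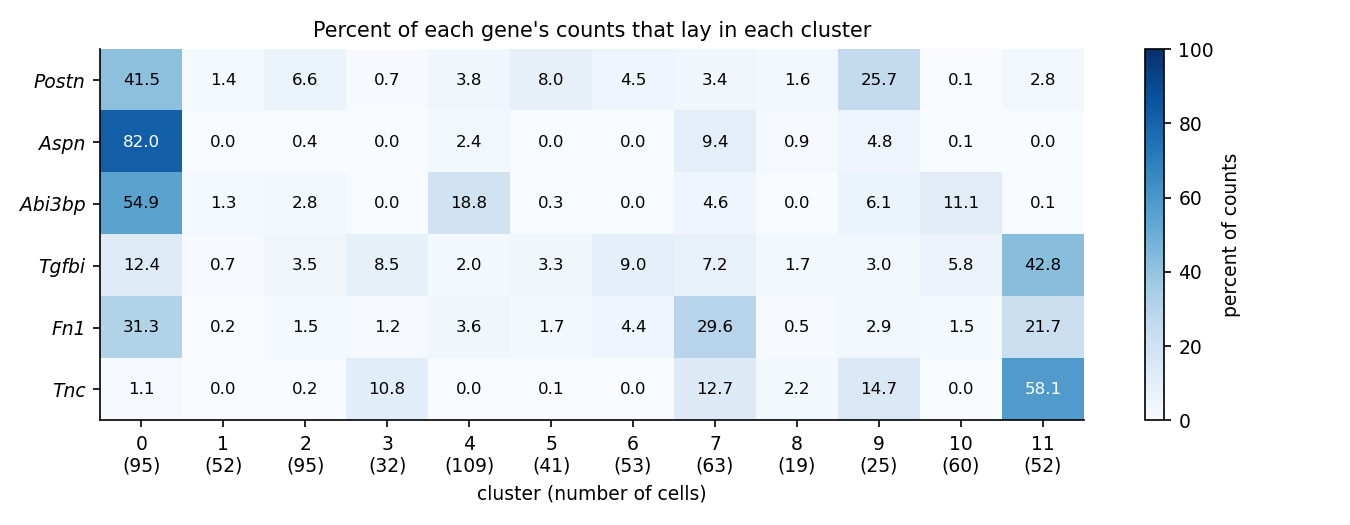
Percent of the counts of each gene that lay in each of 12 clusters (number of cells in brackets), over all cells. Aspn, Abi3bp and Postn peak in cluster 0 with 82%, 54.9% and 41.5%, and Tgfbi and Tnc in cluster 11 with 42.8% and 58.1%. The shares pool plates that differ. On the plates of 8w pw1 cluster 0 held 8.87% and 7.80% of Abi3bp counts, and cluster 11 had 0 cells at 0w and 0 at 8w pw1.

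Clusters 0 and 9 were caught unevenly. Cluster 0 numbered 35 and 30 cells on the plates of 0w, 0 and 2 at 1w pw1, 17 and 10 at 8w pw1, and 0 and 1 at 1w pw2. The genes that define these clusters also differ between time points, so cells that are fewer and cells that have changed state cannot be told apart. Leaving out both clusters, a choice made after seeing where the counts lay, separated Postn from Aspn and Abi3bp. The CPM given for this choice are relative to the counts of the cells kept and are not scaled between plates, unlike the fold changes. Postn then measured 131 and 261 CPM at 0w, 76.1 and 111 at 1w pw1, 239 and 98.5 at 8w pw1, and 154 and 294 at 1w pw2, and the healing plates were no longer all below the others. With the cell of most counts of each plate also left out, Postn was at 131 and 114 CPM at 0w. It was at 64.7 and 97.5 at 1w pw1, 239 and 98.5 at 8w pw1, and 124 and 191 at 1w pw2. On 0w replicate 1 and on both plates of 8w pw1 that cell lay in cluster 9 or 0, so no further cell was removed there. Both 1w pw1 plates did lose a cell. The removal was thus unequal, and no order of 1w pw1 against 0w and 8w pw1 is read from these levels. The 1w pw2 plates overlapped with those of 0w and 8w pw1. With the clusters alone left out, the log2 fold change of Postn from 0w was -0.82 (SE 0.61) at 1w pw1 and 0.14 (SE 0.60) at 1w pw2. Fewer cells of a kind and less RNA in each cell cannot be told apart in such sums. With cluster 0 alone left out it was -2.54 (SE 0.76) at 1w pw1.

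Outside the 2 clusters, Aspn and Abi3bp stayed lower on the 4 healing plates than on the 4 others. Abi3bp measured 117 and 39.9 CPM at 0w, 17.0 and 3.96 at 1w pw1, 34.2 and 87.2 at 8w pw1, and 2.17 and 4.02 at 1w pw2. Its plates of 0w and 8w pw1, apart over all cells, overlapped here, with a log2 fold change of -0.33 (SE 0.83) between them in place of -1.40. This overlap rested on a single cell of 8w pw1 replicate 2, in cluster 4, that held 1007 of the plate's 1334 Abi3bp counts. Without that cell the plate was at 16.5 CPM, below both plates of 0w. On both 0w plates and on 8w pw1 replicate 1 the cell of most counts was already out with clusters 0 and 9. Only 8w pw1 replicate 2 thus lost a further cell, and no separation of 0w and 8w pw1 is read from it. Its log2 fold change from 0w was -2.58 (SE 0.88) at 1w pw1 and -4.66 (SE 0.97) at 1w pw2, where it no longer passed the test. Aspn measured 10.1 and 36.4 CPM at 0w, 1.80 and 0.360 at 1w pw1, 16.7 and 2.56 at 8w pw1, and 1.40 and 0.0559 at 1w pw2. Its order rests on few cells, with a count in 6.52% of 46 and 8.62% of 58 cells at 0w and in 1.67% of 60 and 4.23% of 71 at 8w pw1. The shares were 5.62% of 89 and 3.90% of 77 at 1w pw1, and 2.35% of 85 and 1.11% of 90 at 1w pw2. On 8w pw1 replicate 1 the counts lay in 1 cell, of cluster 4. Without the cell of most counts of the plate as well, 0w replicate 2 was at 1.44 CPM, close to 1w pw1 replicate 1 at 1.23 CPM. On both plates of 8w pw1 that cell was in cluster 0, so none was removed there. The values that follow are for Aspn. Its log2 fold change without the clusters was -4.16 (SE 1.43) at 1w pw1 and -5.17 (SE 1.52) at 1w pw2. Tgfbi, with 1.94 (SE 0.66) at 1w pw1, stayed on its side of 0.

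Within cluster 0, the time points with enough cells were 0w and 8w pw1. Abi3bp measured 408 and 425 CPM at 0w, against 20.5 and 76.5 at 8w pw1, and the cells with a count were 25 of 35 and 22 of 30 against 10 of 17 and 5 of 10. Without the cell of most counts on each plate the levels were 122 and 268 against 14.9 and 46.3, and the time points still did not overlap. In cluster 4, given above, the plates of 8w pw1 were not below those of 0w. Postn was at 2000 and 701 at 0w and at 1529 and 2182 at 8w pw1, so its plates overlapped. Aspn was at 553 and 53.8 against 298 and 226, and without the cell of most counts at 43.6 and 11.8 against 63.0 and 0. The plates of 8w pw1 rest on 17 and 10 cells of cluster 0.

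**Figure D3:**
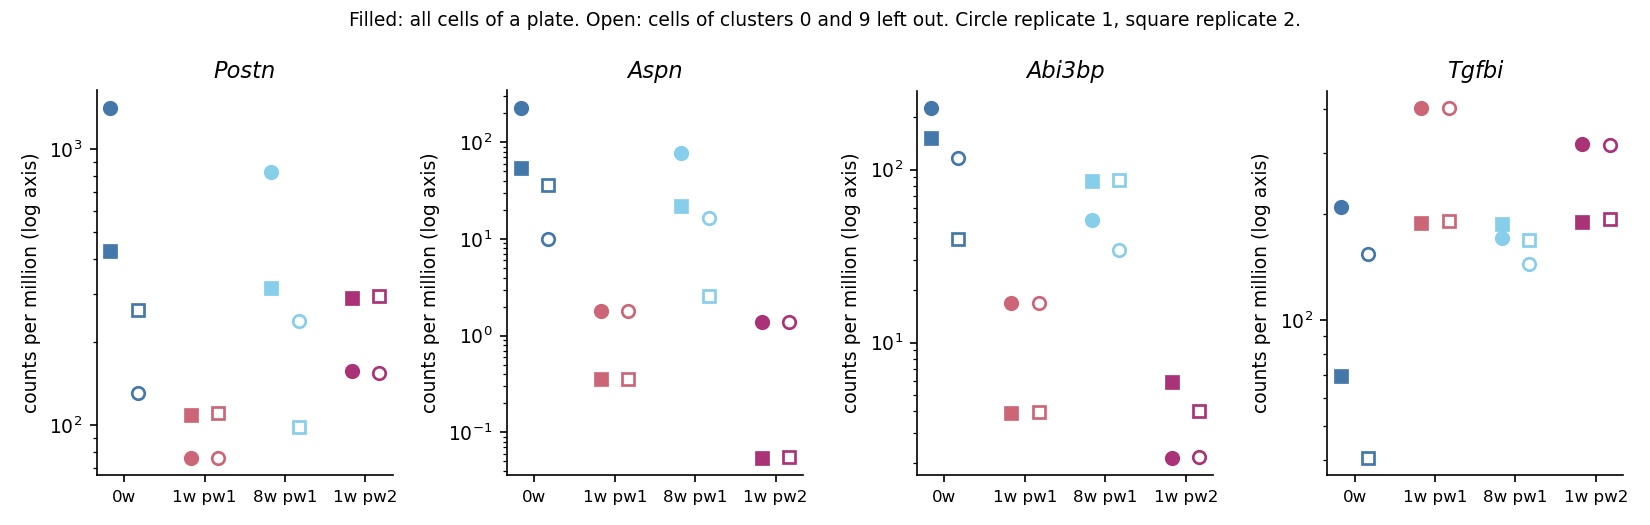
CPM of 4 genes on each plate, not scaled between plates, on a log axis, with all cells (filled) and with the cells of clusters 0 and 9 left out (open), circle replicate 1 and square replicate 2. Postn at 0w moves from 1414 and 428 to 131 and 261, within the range of the other time points, while Abi3bp at 1w pw1 and 1w pw2 stays below 0w and 8w pw1.

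Co-expression was measured as Spearman's rank correlation over the cells of a plate and averaged over the 8 plates, so that differences between time points do not enter. With the summed level of 12 bulge genes the mean rho was 0.29 for Postn (from -0.02 to 0.59), 0.28 for Tgfbi, 0.23 for Tnc, 0.20 for Abi3bp and 0.14 for Aspn. With the summed activated genes it was -0.10 for Postn, -0.04 for Abi3bp, 0.03 for Tgfbi and 0.13 for Tnc. The markers of the upper follicle and duct went the other way, with -0.48 for Tgfbi (from -0.63 to -0.34) and -0.28 for Postn (from -0.46 to -0.07). Tgfbi went with the basal epidermal list at 0.43 (from 0.21 to 0.60) on every plate. The lists were summed as CPM, so genes of high level weigh most. In the bulge list these were above all Krt15 (mean 5930 CPM in cluster 7 and 2945 in cluster 9) and Col17a1 (1698 in cluster 9). Col17a1 was also at 981 CPM in cluster 3 and 498 in cluster 11. The bulge values are thus not shared evenly by the 12 genes. In sparse counts such as these most values are weak, and cells of a plate share depth and preparation, although the mean rho with the total count of a cell was between -0.02 and 0.09 for the 6 genes.

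Bulge genes, again weighted by their level, were also summed in cells with and without each gene. At 0w they came to 2750 and 2679 CPM in cells with Postn, against 806 and 760 in cells without it. Elsewhere this difference was smaller or turned. At 8w pw1 the sums were 2298 and 1456 in cells with Postn, against 1124 and 1499, and at 1w pw2 1208 and 1102 against 1224 and 1200. At 1w pw1 they were lower in cells with Postn on both plates. Cells with Postn then came to 340 CPM on replicate 2, against 430 in cells without it, and to 523 CPM on replicate 1, again below the cells without it. Activated genes at 1w pw1 came to 1296 and 2038 CPM in cells with Postn and 30719 and 14081 in cells without it, and to 28972 and 11615 in cells with Tgfbi and 3894 and 4639 in cells without it. For Tgfbi the activated genes were lower in cells with it on both plates of 0w and of 8w pw1 and on 1 of the 2 of 1w pw2, with 750 and 419 against 4093 and 637 at 0w, 1406 and 937 against 5410 and 5086 at 8w pw1, and 5111 and 7067 against 9523 and 4641 at 1w pw2. At 1w pw2 the activated genes in cells with and without Postn were closer, at 5247 and 7821 against 7097 and 5473.

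The genes most like each member were searched among 10227 genes by mean rho over the 8 plates. For Postn they were Col17a1 (0.42), Cav1 (0.38), Dst (0.37), Ntrk2 (0.35) and Krt15 (0.33), and Col17a1 and Dst encode proteins of the hemidesmosome, which anchors basal cells. Tgfbi shared Col17a1 (0.54), with Fth1 (0.53), Krt5 (0.51), Tspo (0.46) and Mt2 (0.45). For Tnc they were Igfbp7 (0.59), Sparc (0.48), Itga2 (0.41), Prss23 (0.40) and Col18a1 (0.40). Abi3bp came closest to Lgr5 (0.24), Tcf4 (0.23), Vmn2r53, Sgk1 and Afdn (0.22 each), Aspn to Ptn (0.23), Vwa2, Rflnb, Sema3e and Fxyd6 (0.22 each), and Fn1 to Gjb2 (0.24), Odf2l, Dlg4, Rep15 and Kcnk4 (0.21 each), all of them weak. Among the 6 genes themselves the strongest pairs were Postn with Tgfbi (0.28, from 0.08 to 0.44) and Tgfbi with Tnc (0.23), and Postn with Abi3bp reached 0.09.

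**Figure D4:**
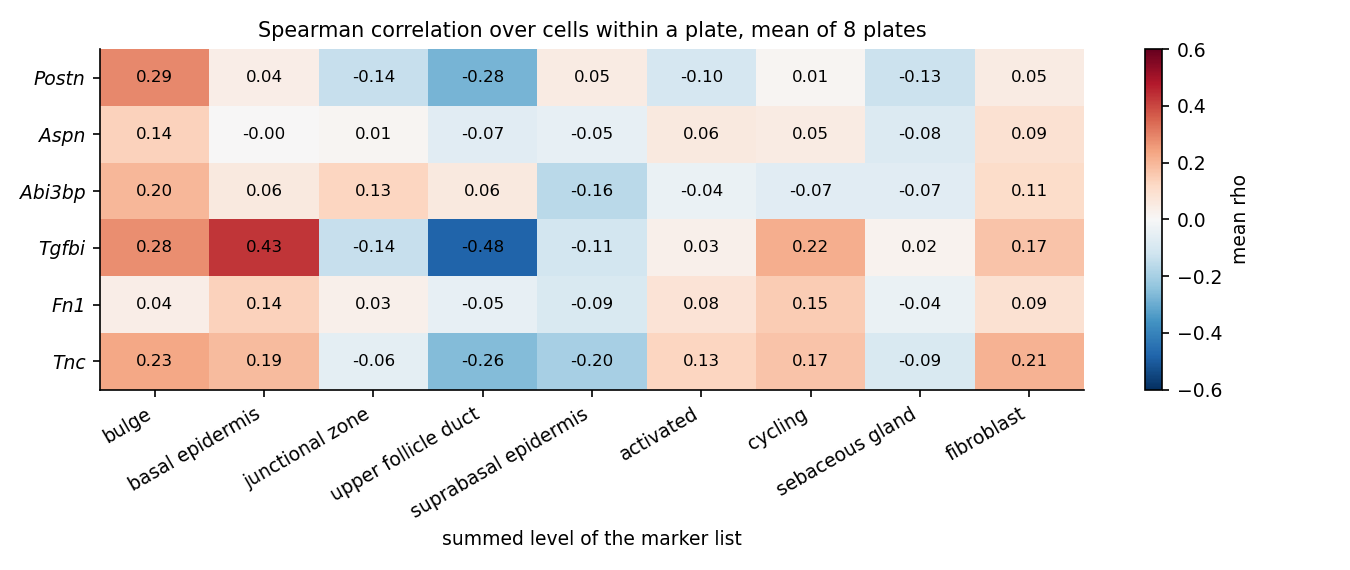
Mean Spearman's rho of each gene (rows) with the summed level of marker lists (columns), over the cells within a plate, averaged over 8 plates. The bulge column runs up to 0.29 for Postn, and the upper follicle and duct column down to -0.48 for Tgfbi.

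Other genes of the same biology were taken from 4 lists written by name. In the other matricellular genes (18 of 30 in the table, 17 tested), 1 fell and 0 rose at 1w pw1 against 0w, where 0.527% of all genes were called. That gene was Thbs1, encoding thrombospondin 1, which binds matrix and activates latent transforming growth factor beta. Thbs1 measured 174 and 156 CPM at 0w, 6.08 and 2.99 CPM at 1w pw1, 138 and 99.9 CPM at 8w pw1, and 60.6 and 28.1 CPM at 1w pw2. Its log2 fold change at 1w pw1 was -5.18 (SE 0.65, edgeR adjusted p = 0.0127), with both plates below both of 0w. At 1w pw2 it was -1.90 (SE 0.56, edgeR adjusted p = 0.209, DESeq2 adjusted p = 0.0331), and the direct comparison of 1w pw2 with 1w pw1 gave 3.29 (SE 0.60, edgeR adjusted p = 0.781, DESeq2 adjusted p = 0.000329). The other leading genes of the list were Smoc2, at 58.0 and 27.9 CPM at 0w and 6.67 and 6.21 CPM at 1w pw1 (edgeR adjusted p = 0.0880, DESeq2 adjusted p = 0.000494), and Sparc, at 38.2 and 28.0 against 28.4 and 10.7 CPM (edgeR adjusted p = 0.796). The median log2 fold change of the list at 1w pw1 was -0.76, against -0.04 for all genes tested.

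Among the other small leucine-rich proteins, relatives of asporin (9 of 12 in the table, 7 tested), 1 fell relative to 0w after the first wound (0.527% of all genes called) and after the second (0.267%), and 0 rose. It was Prelp, a collagen-binding protein of basement membranes, with 7.63 and 9.06 CPM at 0w, 0 and 0.0586 CPM at 1w pw1, 4.46 and 6.72 CPM at 8w pw1 and 0 CPM on both plates of 1w pw2. It was low in all groups, with 315 counts at 0w, 1 count at 1w pw1 and 0 counts at 1w pw2. The level was 270-fold lower at 1w pw1 (95% counting interval 48.1 to 10686, edgeR adjusted p = 0.0453) and at least 91.2-fold lower at 1w pw2 (against a floor of 3 counts over the group, edgeR adjusted p = 0.0450). The interval of the first includes the bound of the second, so no order of the 2 is read. Interval and bound cover the counting of reads alone, not the spread between cells or plates. Dcn, decorin, measured 15.6 and 18.2 CPM at 0w and 0.131 and 0.0586 CPM at 1w pw1, but 0 and 14.7 CPM at 1w pw2, and Bgn, biglycan, 10.7 and 13.1 against 1.57 and 2.52 CPM at 1w pw1. Neither passed the edgeR test (adjusted p = 0.175 and 0.198 at 1w pw1), but both passed that of DESeq2 (adjusted p = 0.000132 and 0.0171). The median log2 fold change of the list at 1w pw1 was -2.03. Dcn is also a fibroblast marker, and the 8 fibroblast markers in the table summed to 39.5 and 31.6 CPM at 0w, 12.2 and 16.8 at 1w pw1, 18.2 and 29.4 at 8w pw1, and 19.2 and 44.3 at 1w pw2. The part of such cells in these levels was not tested beyond the counts per cell given above.

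Of the receptors, integrins and co-receptors (21 in the table, 19 tested), 1 fell at 1w pw1 against 0w and 0 rose, beside 0.527% of all genes called. Itga2, the collagen-binding integrin subunit, measured 66.0 and 47.1 CPM at 0w, 2.81 and 1.64 CPM at 1w pw1, 48.0 and 47.0 CPM at 8w pw1, and 8.33 and 15.6 CPM at 1w pw2. Its log2 fold change was -4.67 (SE 0.64, edgeR adjusted p = 0.0164) at 1w pw1 and -2.24 (SE 0.57, edgeR adjusted p = 0.168, DESeq2 adjusted p = 0.00568) at 1w pw2. The most abundant receptors were Cd44, which binds hyaluronan, at 462 and 359 CPM at 0w and 761 and 687 CPM at 1w pw1, Egfr at 236 and 252 against 185 and 103 CPM, and Sdc1, syndecan 1, at 130 and 118 against 201 and 220 CPM. These 3 had edgeR adjusted p = 0.542, 0.597 and 0.543. The median of this list at 1w pw1 was -0.23 on the log2 scale.

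In the transforming growth factor beta list (21 in the table, 20 tested) 0 genes were called in any of the 5 comparisons by edgeR, and its median log2 fold change relative to 0w was -0.68 at 1w pw1 and 0.11 at 1w pw2. Its most abundant genes were Tgif1, a repressor of the pathway, at 92.1 and 94.1 CPM at 0w and 150 and 102 CPM at 1w pw1, Smad2 at 93.7 and 63.8 against 117 and 111 CPM, and Skil at 51.8 and 39.3 against 47.4 and 88.2 CPM. Over the 63 tested genes of the 4 lists, an unadjusted p under 0.05 was reached by 21 at 1w pw1 (11.5% of all genes) and 4 at 8w pw1 (6.47%), both against 0w. For 1w pw2 the numbers were 17 relative to 0w (12.6%), 10 relative to 1w pw1 (6.01%) and 18 relative to 8w pw1 (7.94%). DESeq2, with 69 genes of the lists tested, called 17, 0, 10, 4 and 6, beside 4.68%, 1.03%, 4.43%, 0.268% and 1.86% of all genes. With every cell weighted equally, Itga2 and Thbs2 were called at 1w pw1 against 0w and Thbs1 and Prelp were not. With the replicate block edgeR called 6 at 1w pw1 against 0w, the additions being Cd36, Itga3 and Thbs2, and the same 1 at 1w pw2. Single plates decided these calls. The call of Thbs1 was lost when replicate 2 of 0w or any plate of 1w pw1 was left out, that of Itga2 when any plate of 0w or 1w pw1 was. Prelp lost its call at 1w pw1 whenever a plate other than those of 1w pw2 was left out, and that at 1w pw2 whichever plate was.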

How the data were processed

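Single keratinocytes were sequenced with Smart-seq2 on 8 plates (4 time points, 2 plates each, 79 to 91 cells a plate). The authors deposited estimated counts per gene and cell, quantified with Salmon 0.13.1 on the GRCm38 mouse assembly and not normalised, of which 96.6% were whole numbers. How transcripts were summed to genes is not given in the sources used here. Plates held 12293096 to 19760764 counts and cells 3551 to 1895079 (median 132595). Counts and intervals cover counting error only, since reads carry no molecular identifiers. Both the 6 genes and the gene lists were chosen with earlier results of these data known. Counts were rounded, added up over each plate and fitted with edgeR 4.0.16 in R 4.3.3 (TMM scaling, default filter, quasi-likelihood test, time point as the only term, 13853 genes, 4 residual degrees of freedom, SE as the log2 fold change over the root of its F statistic). DESeq2 1.42.0 was an alternative. The study's methods give 2 independent experiments of 4 biological replicates each, but neither they nor the labels say which of these a plate holds, so p-values measure the spread between plates. Plates with the same replicate number deviated from their group means together (r from 0.173 to 0.258 over 6 pairs of time points), and the numbers were taken as pairs from this check alone, since the replicate letter in the titles follows the time point and the labels give the number no meaning. Cells were clustered with scanpy 1.11.5 (counts scaled to 10000 per cell, 2000 variable genes, 30 components, 15 neighbours, Leiden resolution 1), doublets were not called, and clusters were named only from the marker lists. Levels within clusters are CPM of the summed counts of those cells. Leading genes were detected in at least 50% of the cells of a cluster. Named pathway genes were those called in any comparison and the 3 of highest mean CPM of each list, and likeness was ranked on log2(CPM + 1) among genes seen in at least 70 cells, without predicted gene models. Exon lengths and gene coordinates are from GENCODE on GRCm38. The deposited counts rest on another annotation release, and symbols were matched by name. Levels in clusters without the cell of most counts were an alternative chosen after seeing the data. Scripts were tested on simulated data.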

Additional observations from a re-analysis of the deposited data

Results flagged for a closer look

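The plates of Fn1 lay on opposite sides of their comparison groups after the first and the second wound. Its 2 plates of 1w pw1 (4.31 and 3.40 CPM) lay below both of 0w (5.24 and 6.63 CPM), whereas its plates of 1w pw2 (1.68 and 2.75 CPM, mean 2.22 CPM) lay above both of 8w pw1 (1.58 and 0.261 CPM). Neither change passed the edgeR test (adjusted p = 0.881 and 0.792), the difference between them was not tested, and the values rest on 4 to 123 counts a plate. With the cell of most counts left out on each plate, the log2 fold change at 1w pw1 against 0w was 0.87 in place of -0.62. With every cell weighted equally, that of 1w pw2 against 8w pw1 was -0.27 in place of 1.27, so both directions turned under an alternative.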

How the results depend on the processing

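The direction of Abi3bp held in every comparison under all 14 alternatives, as did that of Postn and Aspn after either wound relative to 0w, while Tnc changed sign in 6, Tgfbi and Fn1 in 2 each and Postn and Aspn in 1 each of 70 values. Leaving out clusters 0 and 9, added after seeing the data, turned Postn at 1w pw2 from -1.95 to 0.14 on the log2 scale. Counts of calls were less stable. They are given in the order 1w pw1 with 0w, 8w pw1 with 0w, then 1w pw2 with each of 0w, 1w pw1 and 8w pw1. Over all genes, edgeR called 73, 0, 37, 0 and 1. An unadjusted p under 0.05 was reached by 896 genes in the second of these comparisons and by 832 in the fourth. DESeq2 called 732, 161, 693, 42 and 291 genes. The replicate block gave 236, 3, 96, 0 and 8. Equal weight for every cell gave 4 genes in the second, and no filter on low counts gave 5 in the fifth. With 1 plate left out the ranges were 8 to 93, 0 to 2, 1 to 36, 0 to 0 and 0 to 7. Of the 6 genes described, DESeq2 called 3 in the first comparison, 2 in the third and 2 in the fifth, the replicate block 1, 2 and 1, and equal weight 1 in the first and 0 in the third. Leaving out a plate gave 0 to 1 in the first and 0 to 1 in the third. Abi3bp kept its call at 1w pw2 without 1w pw1 replicate 2 and lost it without any other plate, Aspn gained one at 1w pw1 without either 1w pw2 plate, and Abi3bp gained one at 1w pw1 without the cell of most counts on each plate. Of the other pathway genes, DESeq2 called 17, 10, 4 and 6 in the first, the third, the fourth and the fifth, and the replicate block 6 in the first. The replicate block changed no other call of these genes. The cause of these differences was not tested. For Postn, Aspn and Abi3bp finer clusters put less of the counts in the leading one, with Postn at 68.9% at resolution 0.5 and 25.7% at resolution 2, Aspn at 86.8% and 72.2%, and Abi3bp at 65.3% and 46.1%. Tnc was at 58.1% at each resolution, Tgfbi at 43.8% and 42.8%, and Fn1 at 59.4% and 32.9%. The depth limits what can be said of Aspn at 1w pw2, Fn1 and Tnc.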
